A study of Arabidopsis thaliana with 12 samples.

Results

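XERICO (AT2G04240) and AT1G05340 are a pair of Arabidopsis stress genes, and each had 1 feature on the array whose platform annotation gave that gene and no other. They are 2 of the 692 features tied to exactly 1 gene, among 3439 features in all. Both were selected with earlier results of these data in view, in which they had been listed as higher in the mutant. The difference between the groups is therefore given for both genes as a description, with no test.

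All 12 samples of RNA came from Arabidopsis thaliana, ecotype Wassilevskija. Wild type plants gave 6 of them, and their roots had stood for 48 h on MS, a mineral plant medium, with 100 mM glucose. In the other 6 the plants were the mutant kn09, which the labels call hypersensitive to proline and blocked in proline breakdown in the mitochondrion, after 48 h on MS with 100 mM proline. Mutation and medium changed together, so mutant, proline and glucose cannot be told apart as the source of any difference. The labels name no mutated gene and leave unsaid whether samples in 1 group were grown separately, so every error below measures the spread between samples, which may be technical.

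Abscisic acid is the plant hormone that builds up when water is short; it closes stomata and switches on protective genes. XERICO encodes a small protein with a RING-H2 zinc finger, a domain typical of ubiquitin ligases, and Arabidopsis plants that overproduce it hold more abscisic acid and survive drought better. Its transcript is known to respond to salt and osmotic stress and to DELLA proteins, the repressors that gibberellin removes. AT1G05340 encodes a short protein of the CYSTM family, whose members end in a cysteine-rich transmembrane module and are linked to stress tolerance. Proline, the compound given to the mutant, is itself a solute that plants accumulate under drought and salt.

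Values are intensities in the authors' own units, on a linear scale with a ceiling at about 100, whose reference is not given in the sources used here. The median feature of a sample lay between 0.137 and 0.224. Between 175 and 265 features stood at 0 in the wild type samples and between 317 and 475 in the kn09 samples; neither XERICO nor AT1G05340 was at 0 in any sample. In both groups the samples were alike in pairs, 1 with 2, 3 with 4 and 5 with 6. The median feature differed by 0.29 to 0.49 on the log2 scale within such a pair and by 0.48 to 0.88 between samples of different pairs. The labels do not explain these pairs. None of the 17 root marker genes had a feature of its own, so whether the RNA came from roots could not be checked on them. Of 14 marker genes of green tissue 4 were measured, LHB1B2, PSAN, PRK and SBPASE. Their summed intensity was 32.5 to 51.5 in wild type and 5.81 to 8.94 in kn09, and SBPASE was at 0 in 2 kn09 samples. In such bulk RNA, fewer cells of a type and less RNA per cell cannot be told apart. The sum of the green markers thus moved in the opposite direction to XERICO and AT1G05340. A sum does not show the direction of each marker, and the part of these markers in the values below was not tested.

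XERICO, the RING-H2 gene, was a bright feature in both groups and brighter in kn09 on proline. Its intensity in wild type samples 1 to 6 was 4.59, 5.10, 3.21, 2.90, 4.98 and 4.52. In kn09 samples 1 to 6 it was 11.0, 10.9, 7.94, 8.30, 14.0 and 14.0. Every kn09 value lay above every wild type value, the lowest of kn09 being 1.56 times the highest of wild type. Over all features, 9.28% had groups that stood apart in this way with kn09 higher. The mean of the wild type samples was 4.22 ± 0.934 (SD, n = 6) and that of the kn09 samples 11.0 ± 2.63 (SD, n = 6), a ratio of 2.61. After quantile normalization of the log2 values, which gives all samples the same distribution, the difference was 1.25 ± 0.24 (SE), or 2.39-fold.

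The paired samples of XERICO were nearly alike, and most of its spread lay between pairs. The higher value of a pair exceeded the lower by a factor of 1.10 to 1.11 in wild type and of at most 1.04 in kn09. Samples 3 and 4 were the lowest of their group in both groups, with pair means of 3.05 in wild type and 8.12 in kn09. The pair means of samples 1 and 2 were 4.85 and 11.0, and those of samples 5 and 6 were 4.75 and 14.0, in wild type and kn09 respectively. The labels do not tie a wild type pair to a kn09 pair of the same numbers; set side by side, kn09 exceeded wild type 2.26 times in samples 1 and 2, 2.66 times in samples 3 and 4 and 2.95 times in samples 5 and 6. Over all 9 combinations of a kn09 pair with a wild type pair, the factor ran from 1.68 to 4.59. With each pair averaged, the SD was 1.01 in wild type and 2.94 in kn09 (n = 3 pair means each), and the SE of the log2 difference was 0.40 in place of 0.24.

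AT1G05340, the CYSTM gene, was a dim feature, and its groups touched. Its intensity in wild type samples 1 to 6 was 0.0826, 0.122, 0.191, 0.148, 0.0716 and 0.0569. In kn09 samples 1 to 6 it was 0.297, 0.220, 0.269, 0.178, 0.299 and 0.309. On these deposited values the groups overlapped, since wild type sample 3 stood above kn09 sample 4, whose value was 0.929 times as high. The mean of the wild type samples was 0.112 ± 0.0513 (SD, n = 6) and that of the kn09 samples 0.262 ± 0.0523 (SD, n = 6), a ratio of 2.34. After quantile normalization the log2 difference was 1.50 ± 0.26 (SE), or 2.84-fold, with an SE of 0.37 when the pairs were averaged; the groups no longer overlapped, with a gap of 0.33 on the log2 scale. On that normalized scale the gap of XERICO was 0.36, so both genes stood apart. Both had been listed beforehand as higher in kn09, so this is a description and no test. Over all features, 9.86% had groups apart on that scale with kn09 higher.

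**Figure D1:**
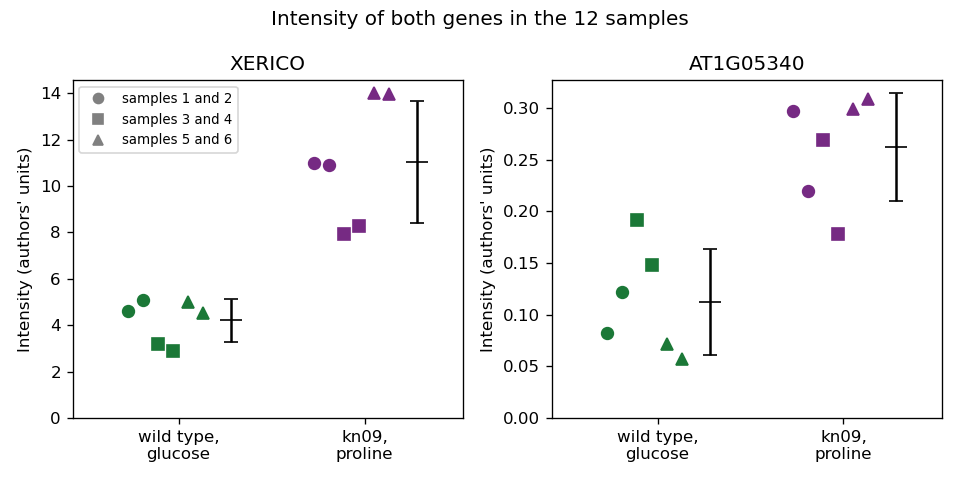
Deposited intensity (authors' units, linear axes from 0) of XERICO and AT1G05340 in the 6 wild type samples on glucose and the 6 kn09 samples on proline; each point is a sample, marker shapes show sample numbers and the bars are mean ± SD. XERICO values of 7.94 or more in kn09 lie above the highest wild type value of 5.10, while wild type sample 3 of AT1G05340, at 0.191, lies above kn09 sample 4, at 0.178.

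In AT1G05340 the order of the pairs was not the same in the 2 groups. Samples 3 and 4 had the highest pair mean of wild type, 0.169, and the lowest of kn09, 0.223, so that kn09 exceeded wild type there by a factor of 1.32. The factor was 2.53 in samples 1 and 2, with pair means of 0.102 and 0.259. It was 4.73 in samples 5 and 6, with pair means of 0.0643 and 0.304. The factors 1.32 and 4.73 were also the lowest and the highest of all 9 combinations of a kn09 pair with a wild type pair. XERICO, by contrast, was lowest in samples 3 and 4 of both groups. Leaving out the same sample numbers in both groups was an alternative chosen after the data were seen. Without samples 3 and 4, the log2 difference of AT1G05340 was 1.89 ± 0.24 (SE), and that of XERICO was 1.24 ± 0.19 (SE). Without samples 1 and 2, AT1G05340 had 1.29 ± 0.29 (SE) and XERICO 1.39 ± 0.30 (SE). Without samples 5 and 6, AT1G05340 had 1.34 ± 0.36 (SE) and XERICO 1.13 ± 0.32 (SE). The samples of a pair also differed more for AT1G05340 than for XERICO, by factors of 1.26 to 1.48 in wild type and 1.03 to 1.51 in kn09.

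Over the features with no value at 0, 13.9% had their lowest pair mean in samples 3 and 4 of both groups on the normalized scale, as XERICO did. A further 10.1% had samples 3 and 4 highest in wild type and lowest in kn09, as AT1G05340 did. Many other features thus had the same orders of the pairs. With 3 pairs in each group, orders with no link between the groups would give either pattern in about 1 of 9 features. The first share lies above that and the second below it. Whether the orders of the 2 groups are linked was not tested.

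The spread of both genes within a group was not unusual for the array. The SD of the normalized log2 values of XERICO was 0.38 in wild type and 0.38 in kn09 (n = 6 each). Among features with no value at 0 in the group, 22.7% had a smaller SD in wild type and 45.9% in kn09. For AT1G05340 the SD was 0.50 in wild type and 0.27 in kn09 (n = 6 each), with 39.9% and 27.5% of features below it.

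The place of a gene among the features of its own sample does not depend on how samples are scaled. XERICO lay above 94.5% to 97.2% of features in the wild type samples, with a median of 96.6%. In the kn09 samples it lay above 97.8% to 98.9%, with a median of 98.6%. It thus belonged to the brightest features of every sample, and its places in the groups did not overlap. AT1G05340 lay above 22.3% to 44.0% of features in wild type, with a median of 31.0%, and above 50.7% to 65.8% in kn09, with a median of 61.7%. It moved from below the middle of the array to just above it, without overlap. Relative to the sample's median feature, AT1G05340 stood at 0.397 to 0.852 times that median in wild type and at 1.02 to 1.82 times in kn09. Intensities of different features are not set against each other as transcript levels, since probe length and binding are not known.

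**Figure D2:**
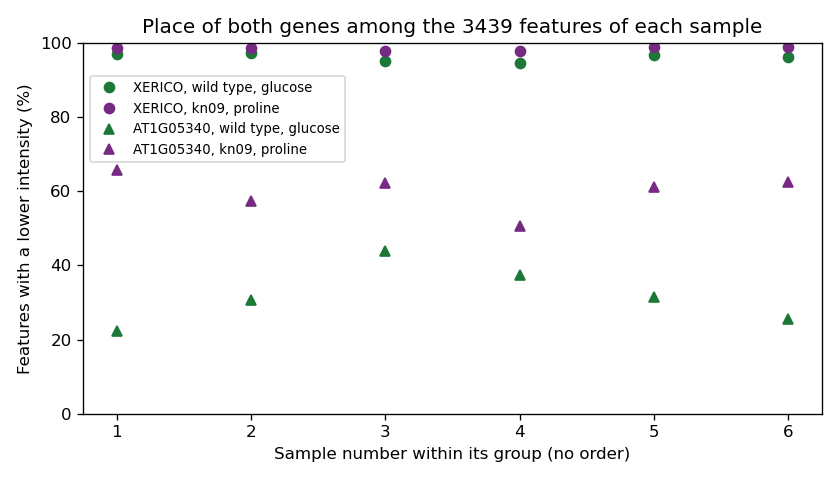
Percentage of the 3439 features with a lower intensity than XERICO (circles) or AT1G05340 (triangles) in each sample; sample numbers within a group have no order. XERICO lies above 94.5% of features or more in every sample, and AT1G05340 lies at 22.3% to 44.0% in wild type and at 50.7% to 65.8% in kn09.

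Which gene differed more was not settled. The log2 difference of AT1G05340 was the larger after quantile normalization, at 1.50 against 1.25 for XERICO, but XERICO had the larger one with no normalization, at 1.38 against 1.33, and with median centring, at 1.47 against 1.41. On the scale of the quantile normalized differences XERICO ranked 507th and AT1G05340 ranked 367th from the highest of 3439 features, so many features differed by more than both in the same direction. The median log2 difference of all features was -0.03.

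**Figure D3:**
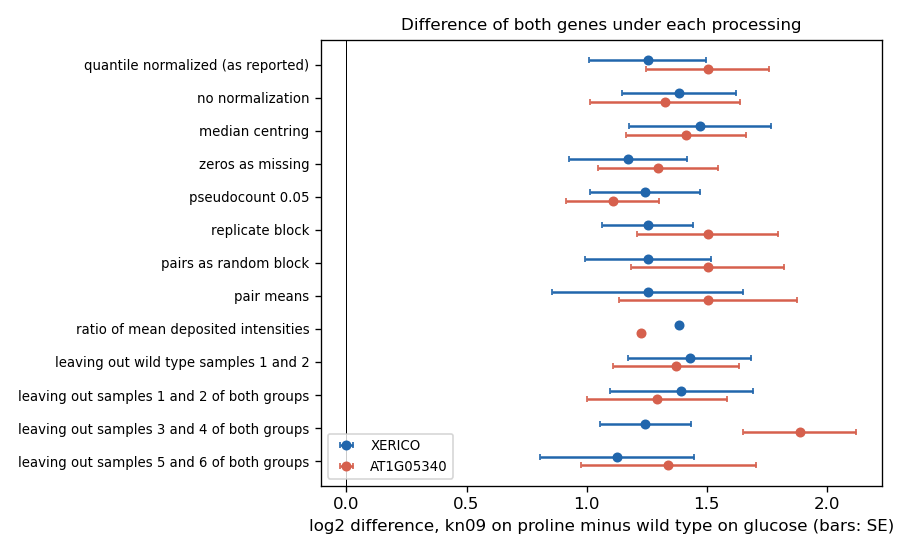
log2 difference between kn09 on proline and wild type on glucose for XERICO (blue) and AT1G05340 (orange) under each processing; bars are SE from limma, and the ratio of mean intensities has none. All values shown are above 0; those of XERICO run from 1.13 to 1.47 and those of AT1G05340 from 1.11, with a pseudocount, to 1.89, without samples 3 and 4 of both groups.

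The genes whose course over the 12 samples was most like that of XERICO were found among the other 415 single-gene features with no value at 0. The measure was the root mean square distance between normalized log2 profiles, each centred on its own mean, so the group difference enters it. The nearest was AT5G63290, which encodes a protein like coproporphyrinogen oxidase, an enzyme of heme and chlorophyll synthesis, at a distance of 0.19. Its intensity in wild type samples 1 to 6 was 0.770, 0.853, 0.523, 0.433, 0.817 and 0.824, and in kn09 samples 1 to 6 it was 1.75, 1.90, 1.37, 1.38, 1.96 and 2.30. Samples 3 and 4 were its lowest in both groups, as they were for XERICO. AT3G47650, a zinc finger protein of the DnaJ type, followed at 0.23, AT2G37750 at 0.25, AT4G05070 at 0.27 and AT5G52810, the reductase SARD4 of pipecolic acid synthesis, at 0.29. On the normalized scale all 5 had their lowest pair mean in samples 3 and 4 of both groups, which the choice by likeness favours; in deposited intensity 4 did, AT2G37750 being the exception. Their log2 differences lay between 1.08 for AT2G37750 and 1.44 for AT3G47650.

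AT1G05340 had no such close companions among single-gene features. Its own paired samples differed by 0.08 to 0.65 on the normalized log2 scale, against 0.01 to 0.19 for XERICO. The part of this spread in the distances was not tested. The nearest to AT1G05340 was AT3G26630, a pentatricopeptide repeat gene, at a distance of 0.41. MAMI (AT5G54110), named for its induction by mannitol, followed at 0.43, with AT1G13990 at 0.44, AT4G25290 at 0.44 and AT3G26580 at 0.44. Among all features with no zero, 16 with no gene or several genes in the annotation lay closer to AT1G05340 than AT3G26630 did, while 0 lay closer to XERICO than AT5G63290. Of the 5, 0 shared on the normalized scale the order of pairs seen in AT1G05340, and 1, MAMI, shared it in deposited intensity. XERICO and AT1G05340 stood 0.58 apart from each other. Of the single-gene features, 55 lay closer to XERICO than AT1G05340 did, and 18 lay closer to AT1G05340 than XERICO did.

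**Figure D4:**
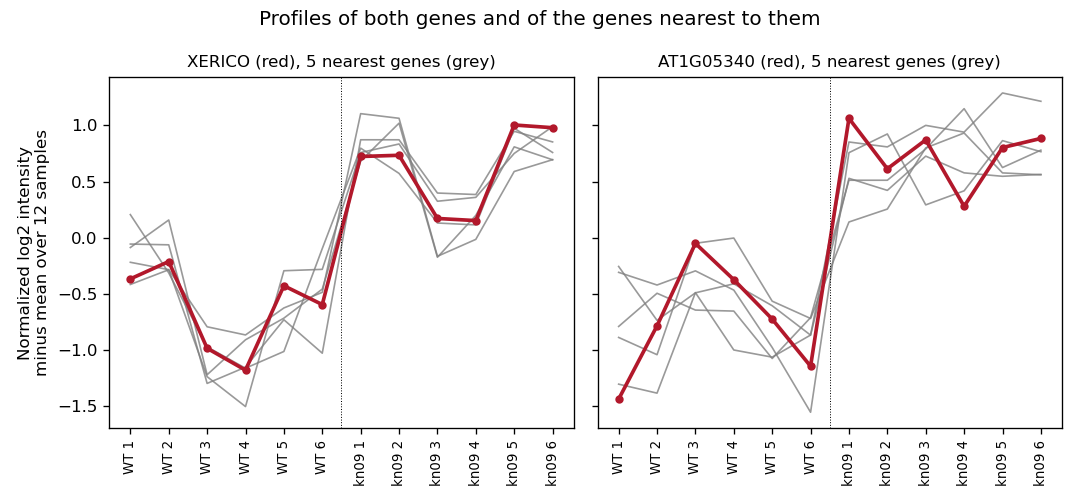
Normalized log2 intensity minus each gene's mean over the 12 samples, for XERICO and AT1G05340 (red) and the 5 single-gene features nearest to each (grey); the dotted line parts wild type from kn09. The lines around XERICO all drop in samples 3 and 4 of both groups, with distances of 0.19 to 0.29, and those around AT1G05340 lie farther off, at 0.41 to 0.44.

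The pathways around both genes could not be followed on single-gene features. Lists of abscisic acid synthesis and breakdown, abscisic acid receptors and signalling, drought and cold response, gibberellin and DELLA genes, small RING-H2 proteins, CYSTM relatives and general stress markers held 128 genes in 7 lists. Of these, 0 had a single-gene feature, so no count in either direction can be given. Genes of the drought and cold list stood on 2 features that carry several genes, and genes of the CYSTM list on 1, and such features were not counted. AT1G05340 is also listed, with 4 other genes, on a second feature that belongs to no single gene.

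In their place stand 5 genes, 4 of them picked by their symbols after the annotation had been seen and the fifth, CML41, known beforehand as higher in kn09. In limma with Benjamini-Hochberg adjustment over all features at 0.05, 14.1% of features were higher and 13.6% lower in kn09. With the pairs averaged these shares were 2.33% and 3.55%. Of the 4 genes picked by symbol 1 was higher, 0 lower and 3 did not pass, and with the pairs averaged 0 passed. MAMI, a membrane protein gene, rose from 0.480 ± 0.182 (SD, n = 6) in wild type to 1.18 ± 0.213 (SD, n = 6) in kn09. Its log2 difference was 1.34 ± 0.25 (SE), and limma gave an adjusted p of 0.00219. Its wild type values lay between 0.200 and 0.668 and its kn09 values between 0.895 and 1.40, without overlap. With the pairs averaged, MAMI did not pass in limma, with an adjusted p of 0.0933. CML41 (AT3G50770), a calmodulin-like protein, had a log2 difference of 3.12 ± 0.37 (SE), given as a description because it was chosen for being higher.

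The 3 genes that did not pass include DI21 (AT4G15910), a gene known for induction by drought and abscisic acid. The mean of DI21 was 0.424 ± 0.203 (SD, n = 6) for wild type and 0.450 ± 0.102 (SD, n = 6) for kn09. Its log2 difference was 0.27 ± 0.38 (SE), and limma gave an adjusted p of 0.641. Its wild type samples ran from 0.139 to 0.677 and its kn09 samples from 0.330 to 0.598, within the wild type range. SIS (AT5G02020), named for its induction by salt, had a log2 difference of -1.01 ± 0.70 (SE; limma adjusted p 0.315), and 1 kn09 value at 0. AILP1 (AT5G19140), named as aluminium-induced, had a log2 difference of -0.71 ± 0.36 (SE; limma adjusted p 0.163). A p that misses the threshold does not show that these genes were equal in the 2 groups.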

How the data were processed

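The table holds 1 intensity per feature and sample. How the authors scaled the deposited intensities is not stated; a linear scale was read from the values, none of which is negative and which end at about 100 in every sample. The scanner, the background correction, the averaging of spots and any filter are not stated by the labels or the file. Groups and sample numbers came from the titles. Genes came from GEO's platform annotation, brought up to date by Entrez identifier with the gene table of TAIR10.1: 692 features had 1 gene, of which 690 matched a locus, 870 had several and 1877 none. No sequence or coordinate was used.

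Each 0 was replaced by the 1st percentile of all positive values in its sample, log2 was taken, and samples were quantile normalized, since their log2 medians lay between -2.87 and -2.16. Group differences were fitted with lmFit and eBayes of limma 3.58.1 (R 4.3.3), two-sided, on group alone, Benjamini-Hochberg over 3439 features at 0.05. The fit was tested on simulated data. Alternatives changed the scaling, the treatment of zeros, the filter, the blocks and the samples used; the 12 samples limit the precision. XERICO and AT1G05340, the lists and the alternatives were chosen with earlier results of these data known. Named genes are both genes, the 5 nearest single-gene features of each, every measured list gene, CML41, and 4 genes picked by symbol afterwards. No cause was weighed.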

Additional observations from a re-analysis of the deposited data

Results flagged for a closer look

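In 40 sets of 6 values, those of XERICO, AT1G05340 and the other named genes in each group, 1 held a sample far from the others. For independent samples chance gives about 1 in 20, but these samples were alike in pairs. Wild type sample 4 had a SIS intensity of 0.254, and the other wild type samples had 0.0971 to 0.142. Neither XERICO nor AT1G05340 had such a sample, but a sample whose pair partner lies close to it cannot be flagged in this way.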

How the results depend on the processing

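Under all 24 alternatives run, the log2 differences of XERICO and AT1G05340 kept their direction, both genes having been listed beforehand as higher in kn09. They ran from 1.13 to 1.47 for XERICO and from 1.11 to 1.89 for AT1G05340. Each moved by less than the SD pooled over both groups, 0.38 for XERICO and 0.40 for AT1G05340. That SD is wider than the SE of the main fit. The replicate block, the pairs as a random block and the pair means could not move these differences, since the groups are balanced. For the differences they changed only the SE. With a pseudocount, with the ratio of mean intensities and without samples 3 and 4 of both groups, AT1G05340 moved by more than its SD within kn09, 0.27. Leaving out 1 sample at a time gave 1.14 to 1.35 for XERICO and 1.39 to 1.67 for AT1G05340, and 789 to 1010 features past the threshold. The count of 951 features was 815 with the replicate block, 620 with the pairs as a random block and 202 with pair means. Samples of the same number correlated by only 0.02 to 0.09 in their deviations from the group means, yet 11 of 12 correlated best with their own number. A weak link between samples of the same number was thus seen. The main fit left it out, as the labels state no pairing. The SE of the log2 difference with the replicate block was 0.19 for XERICO and 0.29 for AT1G05340. Of the 5 genes nearest to XERICO, 2 were kept with profiles centred on each group mean; of those nearest to AT1G05340, 0 were kept with that centring, 2 with no normalization and 3 with pair means. Among features above 0 in all samples, the median place of XERICO was 94.6% in wild type and 97.9% in kn09, and that of AT1G05340 was 10.7% and 41.4%, since dim features were left out. The alternatives for the 7 lists gave no value, as 0 of their genes had a single-gene feature. The signal over background is unknown, which limits the dim AT1G05340 most.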

Other observations

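The second feature that lists AT1G05340 carries 5 genes in the annotation, the other 4 being relatives of the CYSTM family, so no gene can be named from it. Its intensity in wild type samples 1 to 6 was 0.356, 0.368, 0.413, 0.404, 0.0864 and 0.0787. In kn09 samples 1 to 6 it was 0.807, 0.890, 0.190, 0.396, 0.869 and 0.969. The groups overlapped, since wild type samples 1 to 4 stood above kn09 sample 3. In deposited intensity samples 3 and 4 were the highest of wild type and the lowest of kn09, as in the pair means of AT1G05340. On the normalized scale, 10.1% of features with no value at 0 had that order of pairs. The log2 difference was 1.34 ± 0.49 (SE; limma adjusted p 0.0607).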
